A study of Mus musculus with 4 samples.

Results

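The histone genes of adult bone marrow mesenchymal stromal cells (MSCs) were examined in 4 libraries, as 79 genes of the 56980 listed in the count table. They were chosen by gene symbol alone, with a pattern that takes the linker histone H1 genes, the clustered H2A, H2B, H3 and H4 genes, and the named variants H2ax, H2az1, H2az2, H3f3a, H3f3b, H3f3c, Macroh2a1 and Macroh2a2. Of the 79 genes, 66 belong to the replication-dependent class, 12 are polyadenylated variants, and H2ax, whose RNA is known in both forms, was kept as a class of its own. In GENCODE M21 the locus of 56 members is on chromosome 13 and that of 11 members on chromosome 3.

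All 4 libraries form 1 group. Each holds 100 cells sorted from the bone marrow of 1 wild-type male C57BL/6J mouse from an in-house inbred colony, aged 14 weeks, and the mice are called 1 to 4 after their labels. The cells were gated as CD45- Ter119- CD31- CD51+ PDGFRa+ Sca1-, lysed, and their RNA was reverse transcribed from an oligo-dT primer with a template switch, followed by PCR amplification and tagmentation. The data therefore hold no treated or mutant cells, and the comparison made here is between gene classes within each mouse.

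Histones package DNA into nucleosomes, and cells in S phase make large amounts of the core histones from the replication-dependent genes. The mRNAs of these genes are unusual in that they normally end at a conserved stem-loop, bound by the stem-loop binding protein, and carry no poly(A) tail. Variant histones such as H3.3, H2A.Z and macroH2A are made throughout the cell cycle from mRNAs that are spliced in most cases and polyadenylated. An oligo-dT primer starts cDNA synthesis from a run of A.

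The stem-loop was read from the annotated transcripts, and examples are shown because replication-dependent mRNAs normally end there. The classes themselves were assigned by gene symbol, not by the annotated end. H2bc4, the replication-dependent gene with the most counts, has no such stem-loop and is not among the examples. The sequences are in transcript direction, 5′ to 3′, from GENCODE M21 on GRCm38. Capitals mark the 16 bases of the stem-loop, with 6 base pairs around a loop, and lower case marks up to 5 flanking bases on each side. The following are the members with such a stem-loop that had at least 3 counts in every library.
H1f2: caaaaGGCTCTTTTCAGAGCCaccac
H1f4: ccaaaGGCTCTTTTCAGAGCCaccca
H2ac8: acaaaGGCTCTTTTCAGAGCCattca
H2bc6: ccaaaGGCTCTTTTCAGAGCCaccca
H4c4: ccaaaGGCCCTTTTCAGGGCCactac
H4c8: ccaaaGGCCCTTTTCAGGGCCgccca
H4c14: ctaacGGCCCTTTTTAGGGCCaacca
H2ax: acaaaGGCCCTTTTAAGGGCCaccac

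The 3 H4 genes in this list share 1 stem, the H1, H2A and H2B genes another, and H2ax has the stem of the H4 genes. The motif searched was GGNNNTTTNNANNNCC on the transcript strand, with pairing required at 6 positions and G:U pairs allowed, in the first 150 bases after the stop codon of the coding transcript with the longest 3′ UTR. It was found in 42 members, 41 of them replication-dependent genes and the other H2ax. The commonest core, that of H1f2, was present in 23 of the 42, and the stem-loop began between 22 and 59 bases after the stop codon. Among the protein-coding genes with at least 16 bases of 3′ UTR, the motif was in 42 of 62 members and in 4 of 20863 other genes, against 0.220% of all 20925 such genes. None of the polyadenylated variants with a coding transcript held it.

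The annotated end beyond the stem-loop divided the replication-dependent genes further. In 23 of the 66 the transcript ran on for at least 50 bases past the stem-loop, and in 18 it stopped within 50 bases of it. A further 18 had no stem-loop and a 3′ UTR of under 150 bases, and several of these models, such as H1f5, end at the stop codon itself. In 6 the 3′ UTR was 150 bases or longer and held no stem-loop near the stop codon: H2bc4, H2bc21, H2bc22, H2bc23, H2bc24 and H4c1. Another annotated coding transcript of H2bc22 does hold one. The remaining gene, H2ac14, is annotated as a pseudogene. A poly(A) signal (AATAAA or ATTAAA within the last 50 bases) was present in 9 of the 23 extended transcripts, in 5 of the 6 long transcripts without a stem-loop (all but H2bc4), and in 1 of the 18 that stop at the stem-loop, that of H4c8. Where there was no match, these letters are only absent from the annotated window.

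Depth was between 22738604 and 43545349 counts per library, and 3 counts, taken here as the smallest detectable value, correspond to 0.0689 to 0.132 counts per 1000000. Histone genes made up 0.165 to 0.245% of all counts. The sorted antigens' genes Pdgfra and Itgav, together with Cxcl12 and Lepr, were present in every library, with a summed level of 1071 to 4512 TPM (counts divided by exon length and scaled to a library total of 1000000). The osteoblast genes Bglap, Ibsp, Sp7 and Alpl were present in every library as well, at a summed 77792 to 168024 TPM. Of the genes of the excluded antigens, Ptprc (CD45) had 0 to 50 counts, Pecam1 (CD31) 5 to 14 and Ly6a (Sca1) 0 to 144. Adgre1, Csf1r and C1qa, which define macrophages, were at 0 in every library, with 0 to 144 counts of Cd68.

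In all 4 mice the polyadenylated variants made up most of the histone RNA that these libraries captured. Histone RNA without a poly(A) tail is not primed by oligo-dT, so the sums do not measure the total RNA of either class. Their 12 genes summed to 1823, 1219, 2090 and 1308 TPM in mice 1 to 4. The 66 replication-dependent genes summed to 617, 488, 451 and 611 TPM. The groups of values did not overlap, and the variants were higher in each mouse by 2.95, 2.50, 4.64 and 2.14 times. On the log2 scale the ratio of the sums was 1.55 ± 0.48 (SD, n = 4), larger than its spread between mice, and it was positive in 4 of 4 mice. No p-value is given for a sum over genes chosen by name. Measured as counts per 1000000, with no correction for length, the log2 ratio was 2.79.

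**Figure D1:**
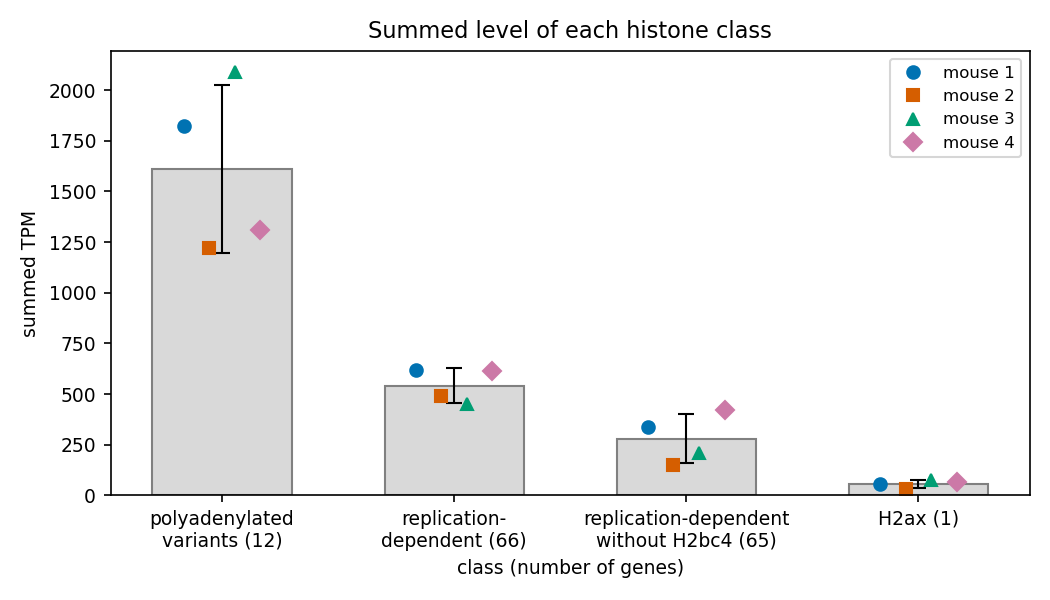
Summed TPM of each histone class (y axis) with the number of genes in brackets. Points are mice 1 to 4, bars the mean and error bars the SD over 4 mice. The variants lie between 1219 and 2090 TPM and the replication-dependent genes between 451 and 617 TPM, and without H2bc4 the latter fall to between 152 and 420 TPM.

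H3f3b and H3f3a code for the same replacement histone H3.3, which is deposited outside replication, and H3f3b gave the highest level of all members. It had 36399, 18714, 51351 and 17075 counts, or 695, 565, 999 and 555 TPM, in mice 1 to 4, and its median ranked 167 among 52125 genes with a length. H3f3a had 286, 201, 276 and 227 TPM. The lowest H3f3b value was above the highest H3f3a value. Within mice H3f3b exceeded H3f3a by 1.48 ± 0.27 on the log2(TPM + 1) scale (SD, n = 4), a 2.78-fold difference, in 4 of 4 mice. In H3f3a 20.8% of the 100-base windows occur in other annotated genes, against 1.92% in H3f3b. Genes on the opposite strand overlap 22.8% of the exon bases of H3f3a, against 0% in H3f3b. Pairs that map to several places were not counted, so the level of H3f3a is uncertain. The effect on the difference was not tested.

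H2A.Z, the variant found at promoters and enhancers, is coded by H2az1 and H2az2. H2az1 was at 465, 231, 526 and 329 TPM and H2az2 at 145, 102, 127 and 119 TPM in mice 1 to 4. H2az1 was the higher in every mouse, by 1.59 ± 0.37 on the log2(TPM + 1) scale, or 3.01-fold. With the length of the longest transcript in place of all exons the difference was 2.32. The levels of H2az1 overlapped those of H3f3a, whereas those of H2az2 lay below both without overlap. In H2az1 25.7% of the 100-base windows occur in other annotated genes, against 0% in H2az2. The effect of this on the difference was not tested.

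MacroH2A carries a large macro domain next to its histone fold and is associated with repressed chromatin. Macroh2a2 had 22.2, 64.6, 37.3 and 24.4 TPM, and Macroh2a1 7.04, 8.85, 6.32 and 1.90 TPM, with no overlap between the genes. The difference of Macroh2a1 minus Macroh2a2 was -2.44 ± 0.68 on the log2(TPM + 1) scale, and Macroh2a1 was the lower in 4 of 4 mice. Its size rests on exon length, since the difference was -0.99 with counts per 1000000 in place of TPM. Part of the exons of Macroh2a2 overlaps Aifm2 on the opposite strand, a gene with 63 to 1425 counts here, and the counting parameters name no strand option.

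Linker histones bind the DNA between nucleosomes, and H1f0 is the replication-independent form known from non-dividing and differentiated cells. It was measured at 191, 24.6, 107 and 42.4 TPM in mice 1 to 4, a wide range for a variant, and H1f10, another replication-independent H1, at 1.77, 12.6, 3.19 and 0.239 TPM. H1f0 was the higher in 4 of 4 mice, with a mean difference of 4.21 ± 2.28 on the log2(TPM + 1) scale. In mouse 2 the difference was only 0.91, and without mouse 2 the mean was 5.31. The order of the mice for H1f0 is the order of the summed erythroid precursor genes given further on. It is also that of the summed S phase genes and of the number of replication-dependent genes detected. A link of H1f0 with any of these was not tested.

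Each of these 4 pair differences had an exact two-sided sign-flip permutation p of 0.125, and a Benjamini-Hochberg adjusted p of 0.125 over the 4 pairs. This is the smallest p that this exact test allows with 4 mice, so the test cannot reach 0.05, and the differences are described by their size and by the number of mice. Among neighbours in the order of mean TPM, no overlap was seen between H3f3b and H2az1, H3f3a and H2az2, or Macroh2a2 and H3f3c. The other neighbours overlapped: H2az1 with H3f3a, H2az2 with H1f0, H1f0 with Macroh2a2, H3f3c with Macroh2a1, and Macroh2a1 with H1f10.

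H3f3c, annotated in GENCODE M21 as a processed pseudogene, had 10.1, 9.19, 8.73 and 9.18 TPM, from 39 to 73 counts. Of its 100-base windows, 56.7% occur in another annotated gene, so its counts are uncertain. H1f7, H1f8 and H1f9, known as male and female germ-line linker histones, were at 0 counts in all 4 libraries. The other 9 variants had at least 3 counts in each library.

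H2ax, the DNA damage-responsive H2A variant, is the one member outside the replication-dependent class with a stem-loop, and its annotated transcript runs on for 822 bases beyond it to a poly(A) signal. It had 1308, 509, 1818 and 918 counts, or 53.7, 33.1, 76.0 and 64.2 TPM (mean 56.7 ± 18.2). That level lay above all replication-dependent genes but H2bc4 and H1f2, by mean TPM, with a coefficient of variation of 32.1%.

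**Figure D2:**
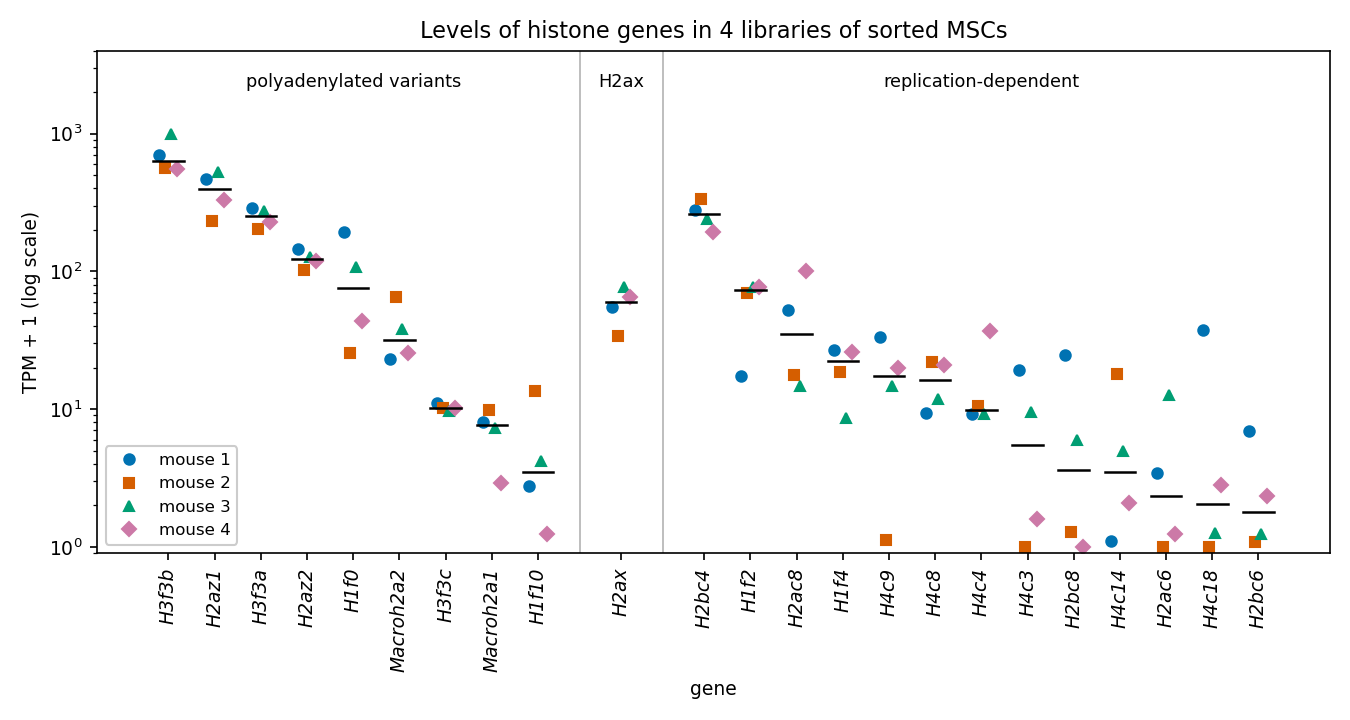
TPM + 1 on a log axis for the named members with any count. Symbols are mice 1 to 4 and bars are medians. The spread between mice is narrow from H3f3b to H2az2 and for H2bc4, and widens among the replication-dependent genes of lower level, where mouse 2 lies at 0 TPM for H4c3, H2ac6 and H4c18.

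The replication-dependent class was led by a single gene. H2bc4, an H2B gene of the large cluster (chr13:23684199-23692908 on GRCm38, plus strand), had 5646, 4327, 4811 and 2287 counts, or 278, 336, 241 and 191 TPM (mean 262 ± 61.1). Its level overlapped that of H3f3a, and no other replication-dependent gene reached its lowest value in any mouse. It supplied 35.8 to 65.8% of the counts of the 66 genes. H2bc4 differs from the textbook gene of its class in its annotation: the model has 2 exons and a 3′ UTR of 742 bases with no stem-loop near the stop codon. A share of 25.4% of its 100-base windows occurs in other genes, mostly other H2B genes.

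H1f2, H2ac8 and H1f4 followed. H1f2, a main somatic H1, had 447, 1184, 2062 and 1232 counts, or 16.3, 68.2, 76.5 and 76.4 TPM, with mouse 1 apart from the others. H2ac8, an H2A gene, had 635, 130, 167 and 721 counts, or 51.3, 16.6, 13.7 and 99.1 TPM, high in mice 1 and 4 and low in mice 2 and 3. H1f4, also a somatic H1, had 875, 378, 252 and 495 counts, or 25.8, 17.6, 7.56 and 24.8 TPM. Each of the 3 transcripts extends past its stem-loop, by 840 bases in H1f2, 151 in H2ac8 and 1153 in H1f4. Together with H2bc4 they held 70.6 to 91.5% of all replication-dependent counts.

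The remaining genes with at least 3 counts in every library were H4c8, H4c4, H4c14 and H2bc6. H4c8 had 69, 110, 88 and 96 counts. Its median was 15.3 TPM, and its coefficient of variation over the mice in TPM was 42.3%. It is the only one of the 8 whose annotated transcript stops within 50 bases of the stem-loop, after 46 bases, with a poly(A) signal in its last 50 bases. H4c4 had 163, 120, 161 and 425 counts, or 8.14, 9.48, 8.19 and 36.1 TPM, so that mouse 4 stood apart. H4c14, from the chromosome 3 cluster, had 3, 309, 111 and 18 counts, or 0.105, 17.0, 3.94 and 1.07 TPM. Of the 8, it was highest in mouse 2 along with H2bc4 and H4c8. H2bc6 had 464, 4, 19 and 62 counts, or 5.93, 0.0809, 0.247 and 1.35 TPM. Its annotated exons share bases with those of H1f4 on the same strand (25.7% of the exon bases of H1f4 lie in another gene), so the counts of both are uncertain there.

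With a minimum of 3 counts in every library, 8 of the 66 replication-dependent genes were called, 12.1%, against 37.5% of all 21922 protein-coding genes and 12.5% of the 1300 single-exon protein-coding genes. Since 61 of the 66 have a single annotated exon, the single-exon genes are the closer match in structure, and the share of members is near theirs. Of the variants 9 of 12 were called. At the other end, 13 replication-dependent genes (19.7%) had 0 counts in every library, against 29.4% of protein-coding and 62.9% of single-exon genes. A median above 1 TPM was found for 21 of the 66, with backgrounds of 44.2% and 16.8%.

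Between these ends most of the class was seen in some mice and not in others. At least 3 counts were found for 38, 8, 29 and 23 of the 66 genes in mice 1 to 4. The same rule called 50.8, 44.3, 52.9 and 50.7% of all protein-coding genes, and 21.8, 16, 22.7 and 19.5% of the single-exon ones. Mouse 2 was the lowest in each of these sets, and its share of replication-dependent genes was below that of the single-exon genes, where the other mice were above it. Without mouse 2, 15 of the 66 had at least 3 counts in each of the other 3 libraries, against 42.1% and 14.8%. Mouse 2 was not the shallowest library, with 26050230 counts against 22738604 in mouse 4.

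**Figure D3:**
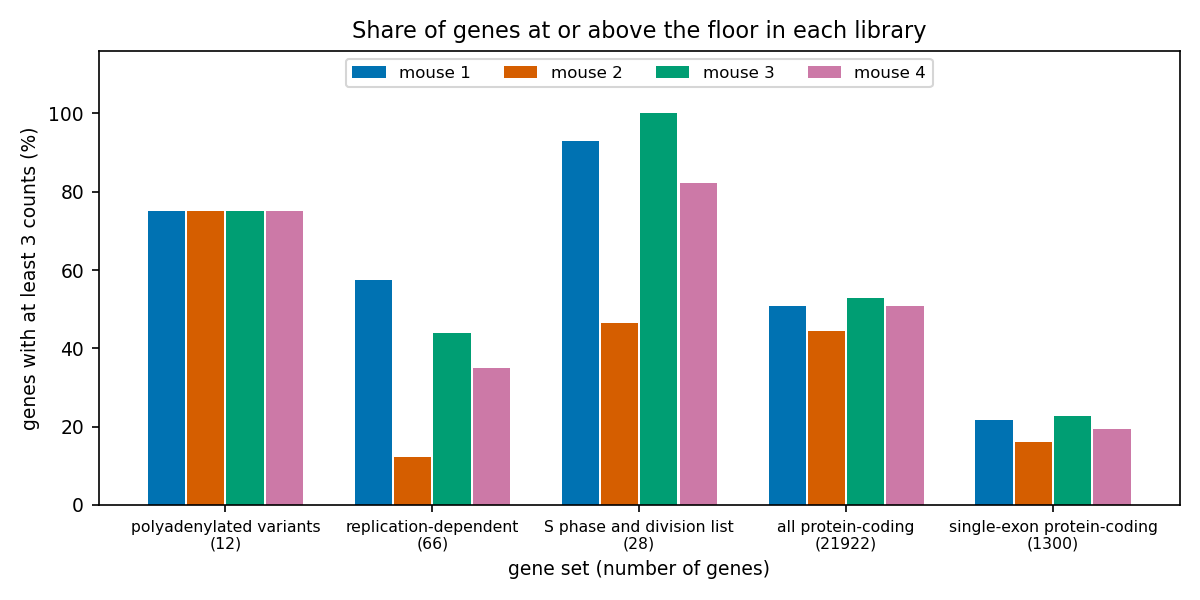
Percentage of genes with at least 3 counts in each library (y axis) for 5 gene sets, with the number of genes in brackets. The variants stay at 9 of 12 in each mouse, whereas the replication-dependent genes run from 8 of 66 in mouse 2 to 38 of 66 in mouse 1.

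Gene by gene the values were of an on-or-off kind. In 25 of the 66 genes (37.9%) one library had 0 counts and another at least 20, against 18.7% of protein-coding and 12.1% of single-exon genes, and none of the 12 variants did so. Only genes with at least 20 counts in some library can meet this rule, and many single-exon genes are at 0 throughout. Of the genes that could, it was met by 25 of 38 members, 4090 of 12888 protein-coding and 157 of 333 single-exon genes. Examples among the H3 genes are H3c10 with 98, 0, 0 and 0 counts, H3c6 with 40, 0, 0 and 110, and H3c7 with 0, 0, 58 and 148, named here after their values were seen. Of the named genes, H4c18 had 276, 0, 2 and 8 counts, H2ac6 106, 0, 500 and 6, H4c3 265, 0, 120 and 5, H2bc8 257, 2, 53 and 0, and H4c9 411, 1, 171 and 142. H4c9, with 1 count in mouse 2, does not meet the rule. These 5 were named for missing the 3-count minimum in some library and for the highest count in any library. They show the pattern largely through that choice and add no support for it. The libraries with counts differed from gene to gene, and each of the 4 mice was at 0 for at least 1 of these 8 genes.

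Among the 38 replication-dependent genes with at least 20 counts in some library, 19 had their highest TPM in mouse 1, 3 in mouse 2, 7 in mouse 3 and 9 in mouse 4. The same genes were at 0 counts in 3, 22, 8 and 10 cases. For those with a mean of 1 to 10 TPM (25 genes), the median coefficient of variation over the mice was 155%, against 84.7% for protein-coding and 118% for single-exon genes of the same level. At 10 to 100 TPM (7 genes) it was 81.8%, against 44.0% and 45.0%. Counting error alone would give a median of 18.3% and 6.96% in these genes, on the assumption that reads are independent, which PCR copies are not. The same error was 5.95% and 2.87% for protein-coding genes, and 10.7% and 4.39% for single-exon genes. At the same TPM the members thus carried more counting error than either background.

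**Figure D4:**
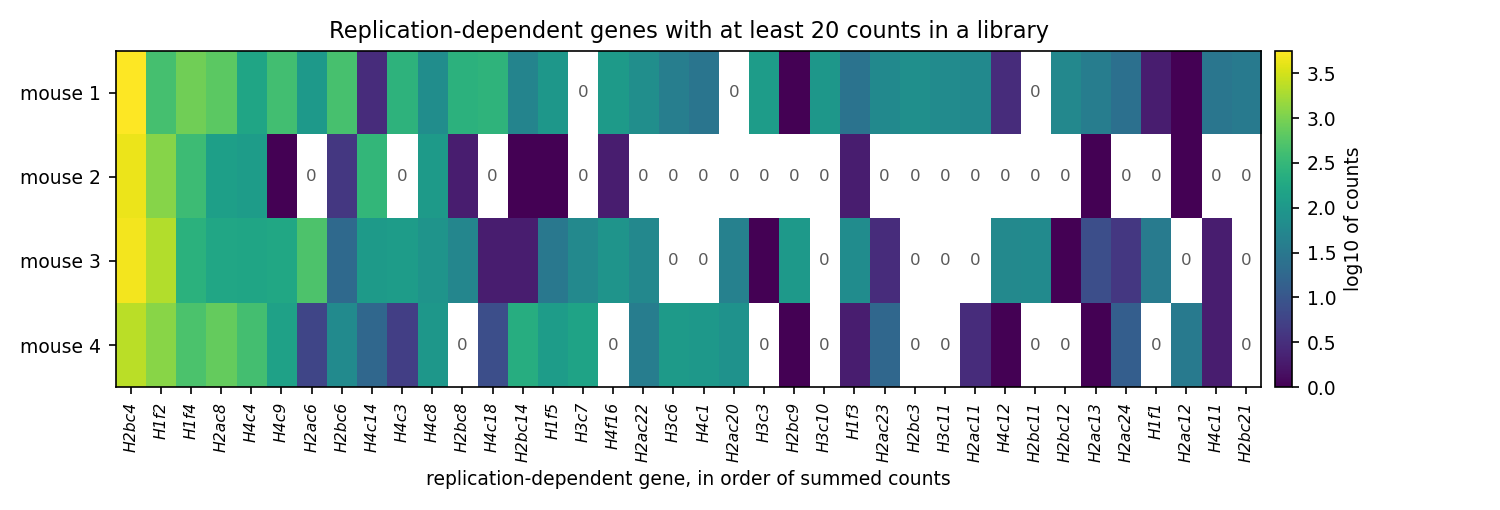
Log10 of counts (colour) for the 38 replication-dependent genes with at least 20 counts in some library, in order of summed counts, in mice 1 to 4. White cells marked 0 had no count. Mouse 2 has 22 such cells, and the 5 genes furthest left, from H2bc4 to H4c4, have counts in all 4 mice.

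By histone type, at least 3 counts in every library were found for 2 of 6 H1 genes, 1 of 18 H2A genes, 2 of 17 H2B genes, 0 of 12 H3 genes and 3 of 13 H4 genes. The share over single-exon protein-coding genes was 12.5%, and with so few genes a type no difference between types is read from these counts. The 12 replication-dependent H3 genes together had 334, 0, 64 and 259 counts in mice 1 to 4. In mouse 2 not 1 count fell on any of the 12, in a library where 3 counts correspond to 0.115 counts per 1000000, while H3f3a and H3f3b had 7834 and 18714 counts there. The 13 H4 genes summed to 112, 47.7, 58.0 and 97.3 TPM and the 18 H2A genes to 88.8, 17.0, 40.7 and 140 TPM. The 17 H2B genes, with H2bc4 among them, were the most even at 329, 337, 259 and 233 TPM, and the 6 H1 genes had 49.9, 86.0, 89.9 and 117 TPM.

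Levels were set beside the annotated transcript end. Of the 23 genes whose transcript extends past the stem-loop, 6 had at least 3 counts in every library, and the median of their mean TPM was 3.50. Of the 18 that stop at the stem-loop 1 did (H4c8), with a median of 0.876 TPM. Of the 18 with neither a stem-loop nor a 3′ UTR of 150 bases, none did, with a median of 0.290 TPM. Of the 6 long ones without a stem-loop 1 did (H2bc4), with a median of 0.170 TPM. The same rule called 37.5% of all protein-coding genes and 12.5% of the single-exon ones. With so few genes in each column, no difference between transcript ends is read from the counts of genes called. As a share of replication-dependent counts, the extended genes held 32.4 to 54.0%, H2bc4 alone 35.8 to 65.8%, and the genes that stop at the stem-loop 1.70 to 6.35%. The gene with the most counts is thus in the column with the lowest median.

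**Figure D5:**
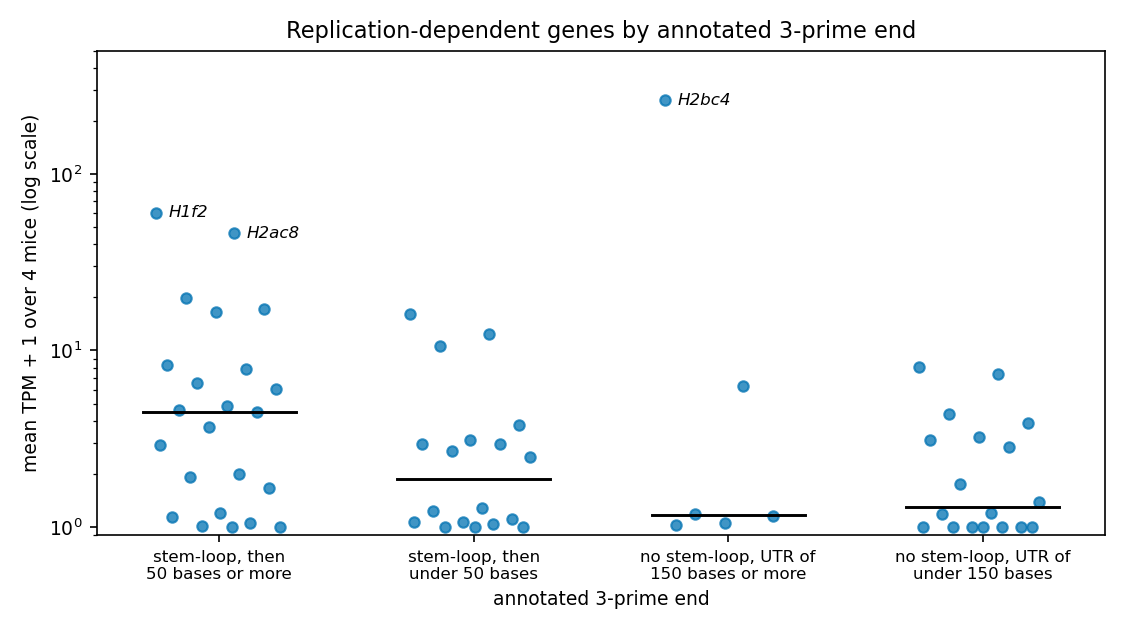
Mean TPM + 1 over 4 mice on a log axis for 65 replication-dependent genes, in columns by their annotated 3′ end, with bars at the medians. H2ac14, which has no coding transcript, is left out. H2bc4, H1f2 and H2ac8 stand above the rest, and the extended genes have the highest median of the 4 columns.

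Sequence shared with other genes was set beside the counts too, and its part in the values by transcript end was not tested. In 29 of the 66 genes more than 50% of the 100-base windows occur in another annotated gene. None of these had at least 3 counts in every library, against 8 of the other 37 and 12.5% of single-exon protein-coding genes. At 0 in every library were 11 of the 29 and 2 of the other 37, against 62.9% of single-exon protein-coding genes. Pairs that map to several places were not counted by the authors, so the levels of near-identical copies, many of them in the H2A, H3 and H4 families, are uncertain. H2ac18, H2ac19, H2bc18, H3c13 and H3c14 were at 0 in every library, and in GENCODE M21 all of their exon bases lie within exons of other genes as well. One of those, Gm20632 on the strand opposite H2ac19, had 363, 0, 425 and 0 counts. For these 5 genes, and for the others with more than 50% of their windows shared, 0 counts does not show absence of RNA.

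Genes of S phase also differed between the mice, and mouse 2 was again lowest. Of 28 genes of S phase and division, 26, 13, 28 and 23 had at least 3 counts in mice 1 to 4. The same rule called 50.8, 44.3, 52.9 and 50.7% of all protein-coding genes. In every library it was met by 10 of the 28 (35.7%), near the 37.5% of protein-coding genes. Mki67 had 2876, 0, 2184 and 638 counts, Top2a, which untangles replicated DNA, 988, 0, 558 and 258, and Rrm2, a subunit of the enzyme that makes deoxynucleotides, 2960, 3, 619 and 651. Mouse 2 was at 0 or close to it for each of the 3, but had 1335 counts of Pcna, the sliding clamp, and 2088 of Mcm7, a helicase subunit. Lowest by median TPM were Cdc6, with 0, 0, 225 and 8 counts, and Pola1, with 4, 0, 19 and 75. The list was at 0 for 2, 11, 0 and 5 genes, and its summed level was 344, 120, 272 and 148 TPM. In bulk samples, fewer cells of a type and less RNA per cell cannot be told apart.

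Erythroid precursor genes, whose cells a Ter119 gate removes once they carry that antigen, put the mice, by their summed level, in the order 1, 3, 4, 2, as did the number of replication-dependent genes and the summed level of the S phase genes. The summed level of the replication-dependent genes did not, with mouse 3 lowest. Of the 7 genes used, 7, 5, 7 and 6 had at least 3 counts, and their summed level was 4984, 35.2, 1690 and 387 TPM. Both genes at 0 in mouse 2, Alas2 and Klf1, are known from haem synthesis and erythroid transcription. Of the 8 neutrophil precursor genes 4, 1, 4 and 2 had at least 3 counts, at a summed 39.7, 19.7, 6.88 and 28.1 TPM, with Ngp and Ltf at 0 throughout. Of the 7 B cell precursor genes 1, 1, 2 and 3 reached 3 counts, at 5.86, 29.1, 21.2 and 19.0 TPM in sum, nearly all from Ebf1, with Cd79b, Igll1 and Rag1 at 0 throughout. The part of erythroid RNA, and of dividing cells of any kind, in the replication-dependent counts was not tested.

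Most genes for the factors that form the 3′ end of replication-dependent mRNA were detected in every library. Of 14 genes of this pathway 12 had at least 3 counts in every library (85.7%, against 37.5% of protein-coding genes). Among these 12, Sympk was at that minimum in mice 1 and 4, with 3, 69, 54 and 3 counts. Slbp, the stem-loop binding protein, had 3597, 2479, 2270 and 986 counts, or 33.6, 36.7, 21.6 and 15.7 TPM, with no drop in mouse 2. Lsm10, a subunit of the U7 small nuclear ribonucleoprotein, was at 23.2, 31.0, 78.4 and 41.3 TPM, and its partner Lsm11 at 0.0352, 0.432, 0.260 and 0.0300 TPM. Npat, the cyclin E-Cdk2 substrate that activates histone gene transcription, had 822, 13, 363 and 772 counts and was lowest in mouse 2. Zfp473 was seen in mouse 3 only, with 102 counts. The endonuclease Cpsf3, which cuts after the stem-loop, had 1647, 18, 2758 and 1053 counts and was also lowest in mouse 2. Ncbp2, the highest of the list by median TPM, was at 38.1, 131, 97.2 and 8.10 TPM, and thus highest in mouse 2.

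Of 20 histone chaperones and loaders, 14 had at least 3 counts in every library (70.0%, against 37.5% of protein-coding genes). Nap1l4 and Nap1l1 were among the 3 highest by median TPM. Nap1l4 was at 79.1, 41.5, 89.0 and 71.7 TPM, and Nap1l1 at 28.5, 56.4, 53.3 and 27.5 TPM. The subunits of CAF-1, which loads histones at replication forks, were uneven: Chaf1b had 546, 0, 336 and 11 counts and Chaf1a 0, 0, 79 and 0. Asf1b, the proliferation-linked form of the H3-H4 chaperone Asf1, had 365, 0, 303 and 0 counts, whereas Asf1a had 822, 121, 894 and 811. Among factors that deposit H3.3, Atrx had 4063, 3661, 2839 and 3106 counts and Ubn1 2644, 1476, 1556 and 1167, all well above the minimum. Daxx had 843, 732, 711 and 0 counts, and Hira itself only 3, 0, 0 and 29. For H2A.Z, the loader subunits Vps72 and Znhit1 were at 27.4, 15.1, 45.8 and 37.9 TPM and 58.7, 70.8, 52.3 and 39.7 TPM, and Anp32e, which removes H2A.Z, at 22.3, 3.76, 30.4 and 14.4 TPM. Of the 20 genes, 1, 5, 1 and 3 were at 0 in mice 1 to 4. The 5 in mouse 2 were Chaf1a, Chaf1b, Asf1b, Hira and Srcap. Chaf1a was also at 0 in mice 1 and 4, Asf1b in mouse 4 and Hira in mouse 3. The variants' loaders on the list had at least 3 counts in every mouse, with the exceptions of Daxx, Hira and Srcap.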

How the data were processed

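The authors deposited 1 table of raw counts per gene for 4 libraries, made by aligning read pairs to GRCm39 with STAR 2.7.10 and counting uniquely mapped pairs on Ensembl exons with featureCounts (Subread 1.6.5). No strand option is given, so counting was unstranded by default. Demultiplexing used bcl2fastq 2.20.0. No molecular identifiers are described, so counting errors and the 3-count floor cover counting only.

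TPM was computed in Python 3.11.15 (numpy 2.4.6, pandas 2.3.3, scipy 1.17.1) from union-exon lengths of GENCODE M21, an annotation of GRCm38 and thus of an older build than the counts. All 79 members matched by gene identifier, 4855 genes without a length were left out, and coordinates, transcript ends and sequences are those of M21. TMM factors came from edgeR 4.0.16 in R 4.3.3, as an alternative only. The TPM, floor and permutation code was tested on simulated data. No column was left unused.

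Each mouse is a separate animal. The sign-flip p-values follow here only from the differences having the same sign in all 4 mice, so they do not measure the spread between these animals. Named genes are all variants, H2ax, the replication-dependent genes with at least 3 counts in every library, and of the rest the 5 with the highest count in any library. H3c6, H3c7, H3c10 and the 5 genes fully overlapped by others were named after their values were seen. Of each pathway list, the 3 genes with the highest and the 2 with the lowest median TPM were set to be named. The other pathway genes named in the text fall outside that choice. Levels were compared between genes as TPM, and 4 pairs by exact sign-flip permutation tests with pseudocount 1. The members, classes and lists were chosen with earlier results of these data known. Alternatives covered gene length, scaling, pseudocount, count minimum, class membership and leaving out each mouse, and 2 of them were added after seeing the data. No genome of the files' build was used here. A marker gene of the lists is not reported here, and the sums are without it.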

Additional observations from a re-analysis of the deposited data

Results flagged for a closer look

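Among 34 values tested for a sample far from the other 3, 3 exceeded Dixon's critical gap, and about 1.7 would be expected by chance, since chance marks about 1 in 20. H1f2 was lowest in mouse 1, at 16.3 TPM, with the other mice between 68.2 and 76.5 TPM and a gap of 0.863 of the range. H4c4 reached 36.1 TPM in mouse 4, and the rest lay from 8.14 to 9.48 TPM (gap 0.952). H4c18 reached 36.5 TPM in mouse 1, the rest lying from 0 to 1.80 TPM (gap 0.951). In this gene 80.7% of the 100-base windows occur in other H4 genes. H4c18 was named for missing the 3-count minimum in some library and for a high count in another. Its gap follows largely from that choice, and the stated chance rate does not hold for genes named in this way. The 3 values come from 2 mice, and no variant and neither class sum was among them.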

How the results depend on the processing

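The ratio of variants to replication-dependent genes stayed positive under each alternative tried. It was moved only by leaving out gene length, to 2.79 on the log2 scale, and ranged from 1.33 to 1.70 with 1 mouse left out. Of the alternatives added after seeing the data, leaving out annotated pseudogenes gave 1.54 and leaving out genes with overlapping exons 1.41. The count of replication-dependent genes in every library, 8 at 3 counts, was 15 at 1 count, 6 at 10 counts, 7 with every library thinned to the smallest, and 21 by a median TPM above 1. It ranged from 8 to 15 with 1 mouse left out, and the 15 came without mouse 2. The count of variants was 8 at 10 counts and 9 otherwise. The pair differences kept their sign. With 1 mouse left out they ranged from 1.35 to 1.54 for H3f3b minus H3f3a, 1.44 to 1.73 for H2az1 minus H2az2, -2.75 to -2.22 for Macroh2a1 minus Macroh2a2 and 3.58 to 5.31 for H1f0 minus H1f10. Of the 26 named genes, the mean level moved by more than its SD in 7 without gene length, in 2 with the longest transcript as length and in 1 with protein-coding genes as the denominator. With the longest transcript as length, H2az1 minus H2az2 was 2.32 and Macroh2a1 minus Macroh2a2 -1.76, and with pseudocount 0.1 H1f0 minus H1f10 was 4.91. The gene pairs were compared within mice, but no groups could be paired by mouse, since all libraries form 1 group. Levels rest on 4 libraries of 100 cells, so a gene at 0 in a mouse may be a missed copy, and the M21 lengths may differ from those counted.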

Other observations

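Some histone genes lie outside the symbol pattern, and they are given here as values chosen after the data were seen. H2aj, an H2A gene known for polyadenylated mRNA, had 2848, 1019, 3635 and 1716 counts in mice 1 to 4, or 86.0 ± 26.8 TPM (SD, n = 4). H2aw had 5.40, 6.07, 2.56 and 10.9 TPM. The H3f3a pseudogene copies H3f3a-ps1 and H3f3a-ps2 had 84, 73, 153 and 72 counts and 28, 22, 33 and 14 counts, which is far below the 7834 to 17640 counts of H3f3a. Cenpa, the centromeric H3 variant, had 384, 1, 1881 and 360 counts and was thus near 0 in mouse 2, like most replication-dependent genes and unlike H3f3a and H3f3b. H2bu2 had 17 counts in mouse 1 and 0 elsewhere, and H3f4 had 0 in every library.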
